A study of Mus musculus with 594 samples.

Results

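Gcg, the mouse gene for preproglucagon, was followed across 29 small molecules that act on chromatin or its enzymes, in the pancreatic endocrine tumour lines αTC1 and βTC3. The gene was found by its symbol among the probe sets of the arrays and was 1 of the 11807 genes measured, represented by a single probe set. Levels are given throughout as log2 of the intensity deposited for this probe set, and a change is a difference of such log2 levels.

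The lines were cultured alike in low-glucose medium and exposed to a compound or to its solvent DMSO for 1, 6 or 24 h. αTC1 had 299 arrays and βTC3 had 295, in batches numbered 4 to 10 in the sample titles. DMSO groups held 14 arrays at each time in αTC1, and 12, 10 and 12 arrays at 1, 6 and 24 h in βTC3. Each compound had 3 arrays per line and time, except that chaetocin had 4 and CI-994, SAHA, scriptaid, BRD-K62233722 and BRD-K92415738 had 2 each at 24 h in αTC1. The hydroxamic acids were trichostatin A (0.22 µM), SAHA (1.3 µM), LBH-589 (0.015 µM), PXD101 (2.4 µM), ITF-2357 (10 µM), CRA-024781 (1.5 µM), pyroxamide (10 µM) and scriptaid (2 µM). The ortho-amino anilides were MS-275 (2.9 µM), CI-994 (10 µM) and MGCD-0103 (1.1 µM), and the cyclic tetrapeptides were apicidin (1.4 µM) and HC-toxin (0.12 µM). All these block histone deacetylases, the enzymes that remove acetyl groups from histones. BIX-01294 (10 µM) and chaetocin (1.7 µM) inhibit methyltransferases that act on histone lysines, and AMI-1 (10 µM) those that act on arginines. 5-azadeoxycytidine, zebuarine and RG-0108 (each at 10 µM) block DNA methylation. A further 10 compounds were known by code name only: BRD5298, BRD8451 and BRD9773 (each at 10 µM), BRD6929 (0.91 µM), BRD-A94377914 (3 µM), BRD-K17311666 (4.3 µM), BRD-K22912318 (5 µM), BRD-K62233722 (3.7 µM), BRD-K90919562 (4.1 µM) and BRD-K92415738 (3.2 µM). Since compounds were dissolved in DMSO, treated wells held the solvent as well. Each line is a single tumour line from mice that carried a viral oncogene, under the control of the glucagon promoter for αTC1 and of the insulin promoter for βTC3. Nothing in the labels says that replicates came from separate cultures, so p-values measure the spread between these arrays, which may be technical.

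Preproglucagon is cut by the convertase Pcsk2 to glucagon in islet α cells, where glucagon raises hepatic glucose output, and by Pcsk1 to GLP-1 in the gut. In α cells the gene is driven by factors such as Pax6, Foxa2, Isl1 and Neurod1, while Pax4, Pdx1, Nkx6-1 and Nkx2-2 belong to the programme of β cells, which keep Gcg low. Histone acetylation generally accompanies active promoters, and deacetylase inhibitors raise some genes and lower others. The promoter is shown as a stretch through which such factors can reach the gene. In RefSeq's promoter table (GRCm38.p6) the 250 bases before the start of Gcg lie at chr2:62483654-62483903 on the minus strand. They are given 5′ to 3′, with matches to the E box CANNTG, a motif of factors of the Neurod1 family, and to TATAAA in either direction in capitals.
Gcg promoter: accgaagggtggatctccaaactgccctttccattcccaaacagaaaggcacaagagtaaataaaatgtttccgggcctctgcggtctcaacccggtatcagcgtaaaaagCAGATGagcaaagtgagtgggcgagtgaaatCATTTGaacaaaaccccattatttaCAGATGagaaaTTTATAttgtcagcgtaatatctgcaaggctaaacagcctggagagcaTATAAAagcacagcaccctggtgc
TATAAA stood 24 to 19 bases before the start and, on the other strand, 72 to 67 bases before it. Of the 32851 promoters in the table, 12.4% held a match in their own 250 bases before the start. Of the 3 E boxes, the outermost began 139 and the innermost 83 bases before the start, and 66.2% of promoters held at least 1. The window had 7 CG pairs, the sites of DNA methylation, against a median of 6 over all promoters. Other motifs were searched on both strands and had 0 matches here: GGGCGG for Sp factors, TGACGTCA for Creb, TGANTCA for AP-1, TGTTTAC for forkhead factors and TAATTA for homeodomain factors. Their shares among all promoters were 32.7%, 1.55%, 6.75%, 3.17% and 4.84% in that order. The short homeodomain core ATTA, which TAATTA contains, had 2 matches, and 54.9% of promoters held at least 1. Matches describe letters and were not tested as binding sites. Sequence beyond the 250 bases was not searched, so the counts of 0 hold for this window only.

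In DMSO Gcg was high and steady in αTC1 and lower but widely spread in βTC3. In αTC1 the lowest, median and highest arrays at 1 h read 12.28, 12.52 and 12.88, with 12.21, 12.44 and 12.67 at 6 h and 11.90, 12.31 and 12.74 at 24 h. The highest value of any probe set on any array was 13.74, so αTC1 readings sat close to the ceiling of the data. In βTC3 the corresponding values were 8.13, 9.92 and 10.66 at 1 h, 7.40, 9.77 and 10.67 at 6 h, and 6.18, 9.12 and 10.43 at 24 h. The 2 lines did not overlap at any time, as the lowest αTC1 array in DMSO lay above the highest βTC3 array.

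As group means Gcg stood at 12.51 ± 0.19 (SD, n = 14) at 1 h, 12.46 ± 0.13 at 6 h and 12.32 ± 0.25 at 24 h in αTC1. In βTC3 it stood at 9.62 ± 0.93 (n = 12), 9.34 ± 1.27 (n = 10) and 8.79 ± 1.49 (n = 12). The line difference was 2.92 ± 0.19 (SE, 7.59-fold, limma adjusted p = 3.12e-13) at 1 h, 3.03 ± 0.25 (8.16-fold) at 6 h and 3.44 ± 0.30 (10.9-fold) at 24 h. Of all genes 58.8%, 58.6% and 59.6% differed between the lines at these times. Adjusted p-values here and below come from limma, with Benjamini-Hochberg adjustment over all genes, and a gene is called where the value is under 0.05.

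The spread in βTC3 followed batch. At 24 h the DMSO arrays of batch 4 read 6.18 and 6.33, those of batch 10 7.71 and 7.83, and those of batch 7 8.66 and 9.04. Batch 6 read 9.20 and 9.59, batch 5 9.83 and 10.31, and the single arrays of batches 8 and 9 10.37 and 10.43. The highest array was thus 19.0 times the lowest in intensity (1377 against 72.4), although cells in all of them had received solvent alone. Batches 4 and 10 were also the lowest at 1 h (8.23 and 8.44, and 8.13) and at 6 h (7.40 and 7.96, and 8.18 and 8.20). Pairs of DMSO arrays from the same batch, line and time differed by a median of 0.183 over 13 pairs in βTC3, and by 0.125 over 21 pairs in αTC1. Over the batches the fitted means of βTC3 spanned 2.99, or 7.92-fold (F = 68.8, adjusted p = 4.24e-14, the 8th highest F, with 36.5% of genes called). In αTC1 they spanned 0.34 (F = 3.08, adjusted p = 0.0459, place 3626, 31.7% called). By the SD over DMSO arrays Gcg was in place 7, 1 and 2 of 11807 genes at 1, 6 and 24 h in βTC3, and in place 5134, 10312 and 2460 in αTC1. Changes under compounds were therefore estimated with batch in the model.

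**Figure D1:**
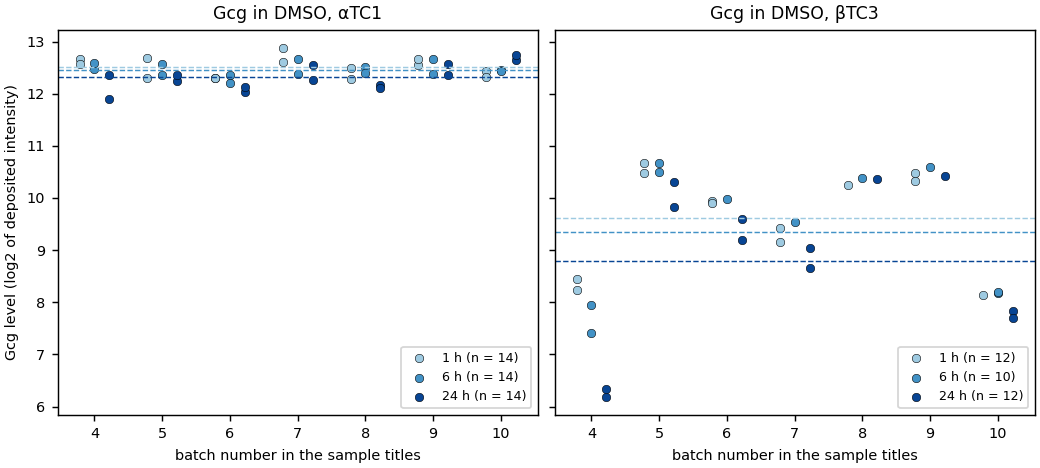
Gcg level (log2 of deposited intensity) in each DMSO array of αTC1 (left) and βTC3 (right) by batch, coloured by time, with dashed lines at the group means. Arrays of αTC1 lie between 11.90 and 12.88, while those of βTC3 run from 6.18 to 10.67 and sit together within a batch.

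In βTC3 Gcg was lower in DMSO at 24 h than at 1 h, a comparison in which time in culture and length of exposure to the solvent cannot be told apart. With batch in the model DMSO at 24 h stood 0.63 ± 0.14 below DMSO at 1 h (1.55-fold, adjusted p = 0.0017, 10.5% of genes called), and the 6 h change was -0.02 ± 0.14 (adjusted p = 0.97, 1.65% called). In αTC1 the 24 h change was -0.19 ± 0.063 (adjusted p = 0.058, 7.28% called), on the other side of the threshold under 4 alternatives given at the end, and the 6 h change was -0.05 ± 0.063 (adjusted p = 0.84, 2.87% called). In batch 4 of βTC3 the fall was the most visible, from 8.23 and 8.44 at 1 h to 6.18 and 6.33 at 24 h. Batch 8 read 10.25 and 10.37 at these times and batch 9 averaged 10.40 and 10.43, so neither showed a fall. Without batch 4 the βTC3 change was -0.34 (adjusted p = 0.0068), and without the batch term it read -0.83 with an adjusted p of 0.38.

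The genes whose level followed Gcg most closely over DMSO arrays were named by Pearson's r among the 5903 genes whose SD was above that of the median gene, as a description, since arrays share batches and labelling. Over the 34 DMSO arrays of βTC3 these were Gadd45a (a stress-induced gene, r = 0.92), Isg20 (0.90), Ptprd (0.90), Trpm5 (an ion channel of taste and β cells, 0.89) and Ecd (0.89). The lowest values belonged to H2aw (-0.91), Mfsd1 (-0.91), Il1r2 (-0.91), Cyfip2 (-0.91) and Rhoq (-0.90). Among the fixed lists, the gut hormone gene Gast (gastrin) had r = 0.83, Pcsk1 0.76 and Sct (secretin) 0.74 in these arrays, while Sst (somatostatin) had -0.77 and Pax4 -0.69. Over the 42 DMSO arrays of αTC1 the highest were Hmgb1 (0.70), Exoc7 (0.67), Lsm5 (0.66), Enpep (0.66) and Hcfc1 (0.65), and the lowest Cd79a (-0.72), Vegfb (-0.71), Mfhas1 (-0.69), Rnase1 (-0.68) and Hs1bp3 (-0.68).

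The labels of the lines were checked against islet markers in DMSO at 24 h. Of the 6 α cell markers measured besides Gcg, 4 were higher in αTC1 and 2 lower: Irx1 (4.40 ± 0.063), Irx2 (3.74 ± 0.070), Pou3f4 (3.59 ± 0.094) and Slc7a2 (2.17 ± 0.15) against Tm4sf4 (-5.04 ± 0.090) and Ttr (-1.48 ± 0.059). Of the 7 β cell markers 0 were higher and 5 lower in αTC1, among them Ins2 (insulin, -8.88 ± 0.18), Pdx1 (-5.22 ± 0.13) and G6pc2 (-2.12 ± 0.095). Background shares for these counts were 30.7% of genes higher and 28.9% lower in αTC1. Mafa, Ins1, Iapp and Pcsk2 were not analysed here. The summed intensity of 4 fibroblast, leukocyte and endothelial genes was 27.6 to 31.9 over the 24 h DMSO arrays of αTC1 and 27.3 to 31.5 in βTC3, and that of 3 exocrine genes 25.4 to 34.0 and 26.3 to 31.0. βTC3 also held the δ cell hormone Sst (8.69 ± 0.11 higher than αTC1) and Npy (9.06 ± 0.086 higher), so it expressed several islet hormones besides insulin. The pancreatic polypeptide gene Ppy did not pass the test (0.02 ± 0.067, adjusted p = 0.82), and Pyy was higher in αTC1 (0.43 ± 0.082).

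Factors that act on the gene were compared between the lines in the same arrays. Of the 13 measured activators of Gcg 5 were higher and 4 lower in αTC1, near the 30.7% and 28.9% of all genes. Pax6 was lower in αTC1 (-2.35 ± 0.068) despite its role as an activator, as was Isl1 (-0.71 ± 0.056), whereas Foxa2 was higher (0.43 ± 0.061). Pax4 (-2.54 ± 0.13) and Nkx6-1 (-1.59 ± 0.089) were lower in αTC1 and the repressor Hes1 was higher (1.53 ± 0.079), and Nkx2-2 did not pass the test (-0.17 ± 0.12, adjusted p = 0.23). 8 of the 9 processing and granule genes were lower in αTC1, led by Pcsk1 (-6.88 ± 0.096) and Scg3 (-3.06 ± 0.051), and Pam was higher (0.45 ± 0.080). Of the neighbours of Gcg on the chromosome Dpp4, which cleaves and inactivates GLP-1, was lower in αTC1 (-1.60 ± 0.098), and Fap did not pass the test (0.07 ± 0.067, adjusted p = 0.41).

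Each compound was then set against DMSO of the same line and time. At 1 h Gcg passed the test under 0 of the 29 compounds in either line by limma, with 1 unadjusted p under 0.05 in each, and 0.0327% of all genes were called over these compounds in αTC1 and 0.0943% in βTC3. The changes ran from -0.20 to 0.11 in αTC1 and from -0.30 to 0.26 in βTC3. At 6 h it passed under 1 compound in each line, the anilide CI-994, against 20.8% of genes called over all compounds in αTC1 and 22.1% in βTC3. At 24 h Gcg rose under 11 compounds and fell under 4 in αTC1, and rose under 3 and fell under 5 in βTC3. Over the same compounds 21.3% of all genes were called in αTC1 (10.6% with a rise, 10.7% with a fall) and 18.2% in βTC3 (9.49% and 8.73%). The range was then -0.40 to 0.57 in αTC1 and -0.88 to 1.41 in βTC3. A single adjustment over all genes and all comparisons with DMSO together was also made. The counts at 24 h were then 11 and 3 in αTC1 and 3 and 5 in βTC3. In βTC3 without a batch term the counts at 24 h were 0 and 0. Both errors and estimates moved, with CI-994 for example at 1.21 ± 0.86 and MS-275 at 0.15 ± 0.86.

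**Figure D2:**
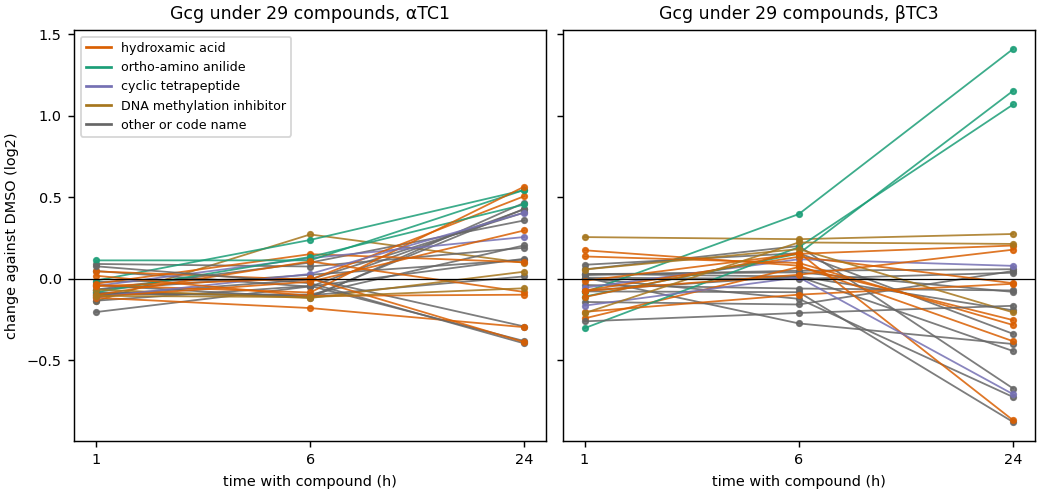
Change of Gcg against DMSO (log2, batch in the model) at 1, 6 and 24 h for each of the 29 compounds in αTC1 (left) and βTC3 (right), with lines coloured by compound class. Changes at 1 h lie between -0.30 and 0.26, and the spread widens by 24 h, most in βTC3, where the 3 anilides reach 1.07 to 1.41.

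The ortho-amino anilides raised Gcg in both lines. In βTC3 at 24 h CI-994 arrays read 8.85 in batch 4, 10.72 in batch 5 and 10.41 in batch 6. MGCD-0103 arrays read 8.60, 10.46 and 10.15 in the same batches. MS-275 arrays read 8.53 in batch 4, 10.12 in batch 6 and 8.17 in batch 10. All 9 arrays lay above every DMSO array of their own batch. Only the batch 5 arrays of CI-994 and MGCD-0103 also lay above the 24 h DMSO arrays of every batch, the highest of which read 10.43. The changes were 1.41 ± 0.20 for CI-994 (2.66-fold, adjusted p = 7.90e-09), 1.15 ± 0.20 for MGCD-0103 (2.23-fold, adjusted p = 1.36e-06) and 1.07 ± 0.19 for MS-275 (2.10-fold, adjusted p = 4.19e-06). These compounds called 33.8%, 31.6% and 32.9% of all genes, among which the change of Gcg was in place 262, 365 and 495 by size. In αTC1 CI-994 arrays read 12.72 and 12.70, MGCD-0103 arrays 12.96, 12.72 and 12.59 and MS-275 arrays 12.45, 12.86 and 12.69. Here too all 8 arrays lay above every DMSO array of their batch, by smaller steps. The changes were 0.55 ± 0.13 for CI-994 (1.46-fold, adjusted p = 4.90e-04, 31.4% of genes called), 0.55 ± 0.11 for MGCD-0103 (adjusted p = 3.54e-05, 32.2%) and 0.46 ± 0.11 for MS-275 (adjusted p = 4.14e-04, 37.7%). In αTC1 the call for MS-275 was lost without replicate 2 (0.31, adjusted p = 0.11) or batch 6 (0.30, adjusted p = 0.083), and that for CI-994 without replicate 2 (0.50, adjusted p = 0.066).

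As a class, with equal weight per compound, the anilides changed Gcg by 1.21 ± 0.14 in βTC3 (2.32-fold, adjusted p = 3.53e-12, 43.7% of genes called) and by 0.52 ± 0.081 in αTC1 (1.43-fold, adjusted p = 9.94e-08, 43.8%). The change was larger in βTC3 by 0.70 ± 0.16 (adjusted p = 2.77e-04, 27.9% of genes called in that test). Without the batch term this difference read 0.37 (adjusted p = 0.75) and the βTC3 change 0.77 (adjusted p = 0.32). The βTC3 change was 0.71 ± 0.11 without batch 4, and 2.41, 0.52 and 0.83 within batches 4, 5 and 6. The line difference was not tested without batch 4.

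The rise against DMSO grew with time. At 6 h in βTC3 CI-994 arrays read 8.28, 10.92 and 10.38 in batches 4, 5 and 6, and all 3 lay above DMSO of their batch (0.40 ± 0.13, adjusted p = 0.0203, 24.7% of genes called). In αTC1 they read 12.88, 12.48 and 12.52 (0.24 ± 0.089, adjusted p = 0.0416, 23.1%). Of 19 alternatives 11 kept the 6 h call in αTC1 and 13 in βTC3. MS-275 at 6 h stood at 0.13 ± 0.089 and 0.20 ± 0.13 and MGCD-0103 at 0.11 ± 0.089 and 0.16 ± 0.13 in αTC1 and βTC3, none of which passed the test. The class at 6 h passed narrowly, with 0.16 ± 0.063 in αTC1 (adjusted p = 0.0466, 26.6%) and 0.25 ± 0.098 in βTC3 (adjusted p = 0.0451, 29.4%). In αTC1 7 of 21 alternatives kept the call, which was lost without replicate 1, 2 or 3 (adjusted p = 0.061, 0.32 and 0.18 for Gcg), and in βTC3 13 of 21 kept it, and it was lost without replicate 3 (0.17, adjusted p = 0.35). Within single batches no 6 h class change passed the test, and in batch 5 of αTC1 it was -0.023. The step of this change from 6 to 24 h was itself tested. It was 0.96 ± 0.17 in βTC3 (adjusted p = 1.78e-06, 28.6% called) and 0.35 ± 0.10 in αTC1 (adjusted p = 0.0028, 32.9%). In αTC1 the Gcg call was lost without replicate 2 (0.34, adjusted p = 0.052). In βTC3 CI-994 arrays averaged 9.86 at 6 h and 9.99 at 24 h, and MGCD-0103 arrays 9.62 and 9.74. DMSO of their batches 4, 5 and 6 averaged 7.68, 10.58 and 9.99 at 6 h. At 24 h it averaged 6.25, 10.07 and 9.40. For these compounds the step thus came more with lower DMSO than with higher levels under the compound. At 1 h 8 of 9 anilide arrays of βTC3 lay below DMSO of their batch, with a class change of -0.16 ± 0.095 that did not pass the test (adjusted p = 0.83, 0.0254% called).

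The size of the rise in βTC3 differed between batches. In batch 4, where DMSO averaged 76.4 in linear intensity, the 3 anilide arrays stood 2.28 to 2.60 above DMSO, a gain of 293 to 386 in intensity. In batch 5, where DMSO averaged 1092, the 2 arrays stood 0.39 to 0.65 above it, a gain of 321 to 593. In batch 6, with DMSO at 679, the 3 arrays stood 0.73 to 1.02 above it, a gain of 437 to 683. The array of batch 10 gained 0.40, or 69.3 in intensity over 218. The class change of Gcg within batch 4 was 2.41 ± 0.13 (adjusted p = 7.67e-06), within batch 5 0.52 ± 0.20 (adjusted p = 0.14) and within batch 6 0.83 ± 0.15 (adjusted p = 0.0045). In a test added after these values were seen, batch 4 exceeded batches 5 and 6 by 1.73 ± 0.21 (adjusted p = 0.0026, 0.0932% of genes called). The level reached in batch 4, 8.53 to 8.85, was close to the 8.23 and 8.44 of its DMSO arrays at 1 h. Leaving out batch 4 gave 0.71 ± 0.11 for the class (adjusted p = 2.20e-07). In αTC1 the class change was 0.58, 0.40 and 0.64 within batches 4, 5 and 6.

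**Figure D3:**
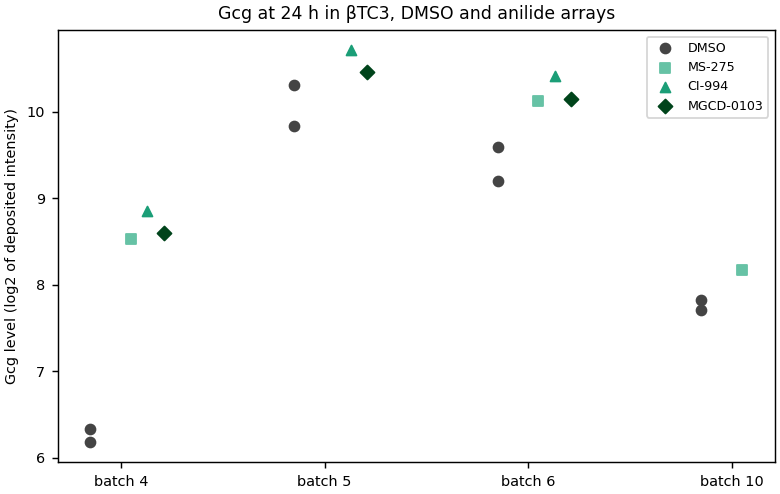
Gcg level (log2 of deposited intensity) at 24 h in βTC3, in DMSO arrays (grey circles) and anilide arrays (green symbols) of the batches that held both. Anilide arrays lie above DMSO of their batch in each, by 2.28 to 2.60 in batch 4 and by 0.39 to 1.02 in the others.

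To see whether αTC1 material could be read in these arrays, genes of αTC1 that are at the floor in βTC3 were looked at, a choice made after values were seen. Over all 295 arrays of βTC3 the αTC1 genes Cps1 and Grb10 stayed at or below 5.91 and 4.13, against medians of 11.85 and 8.88 in αTC1. In the βTC3 anilide arrays at 24 h Cps1 read 2.99 to 3.86 and Grb10 2.91 to 3.65. DMSO arrays of βTC3 at 24 h read 2.86 to 4.06 and 3.10 to 3.66. Whether a small share of αTC1 material was present was not tested. In the other direction 8 of 299 αTC1 arrays had Ins2 above 7, where the αTC1 median was 4.12. The highest of the 8 read 9.63, and the highest αTC1 DMSO array read 7.75. Arrays with a compound at 24 h among the 8 included apicidin replicate 1 (9.07) and ITF-2357 replicate 1 (7.85). Their Gcg results are also given below from fits that left out replicate 1 of every compound. As these are bulk samples, a change in the share of cells that express Gcg and a change in transcript per cell cannot be told apart.

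The hydroxamic acids, in contrast, split in αTC1. SAHA arrays read 12.62 and 12.97 and LBH-589 arrays 12.67, 12.82 and 12.66, all above DMSO of their batch. Gcg rose under SAHA (0.57 ± 0.13, 1.48-fold, adjusted p = 6.17e-04, 20.7% of genes called) and LBH-589 (0.51 ± 0.11, adjusted p = 3.92e-04, 15% called). Both calls were lost without replicate 2 (0.49, adjusted p = 0.14, and 0.40, adjusted p = 0.060), and that for SAHA also without batch 5 (0.46, adjusted p = 0.13). Trichostatin A arrays read 11.86, 12.01 and 11.71 and ITF-2357 arrays 12.004, 12.08 and 12.09, all below every DMSO array of their batch. Gcg fell under trichostatin A (-0.39 ± 0.11, adjusted p = 0.002, 42.8%) and ITF-2357 (-0.30 ± 0.11, adjusted p = 0.0194, 46.2%). For ITF-2357 the change was -0.20 (adjusted p = 0.24) without replicate 1 of every compound, which included its array with Ins2. It was -0.16 (adjusted p = 0.37) without batch 10. Scriptaid (0.30 ± 0.13, adjusted p = 0.45, 0.423% of genes called), CRA-024781 (0.10 ± 0.11), PXD101 (-0.08 ± 0.11) and pyroxamide (-0.10 ± 0.11) did not pass the test. The class mean of 0.08 ± 0.058 (adjusted p = 0.29, 50.4% of genes called) therefore averaged members of opposite sign, with 10 of 22 arrays above and 10 below all DMSO arrays of their batch. Doses differed between these compounds, from 0.015 to 10 µM, and each had a single dose.

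In βTC3 PXD101 lowered Gcg and the other hydroxamic acids did not pass the test. PXD101 arrays read 8.20, 9.66 and 6.67 in batches 7, 9 and 10, each below the DMSO arrays of its batch (-0.87 ± 0.20, 1.82-fold, adjusted p = 1.46e-04, 42.4% of genes called). The others ran from -0.38 ± 0.20 for pyroxamide to 0.21 ± 0.20 for scriptaid, and SAHA and LBH-589, which raised Gcg in αTC1, both stood at -0.03 ± 0.20. The class stood at -0.18 ± 0.10 (adjusted p = 0.16, 43.2%). Within single batches the arrays of the class were pooled, and batches held different compounds. In batch 4 the value was 0.55 ± 0.14, where SAHA, LBH-589 and scriptaid arrays read 6.81, 6.79 and 6.81 over DMSO of 6.18 and 6.33. In batch 10 it was -0.54 ± 0.20, from arrays of ITF-2357, PXD101, CRA-024781 and pyroxamide. Batches 4 and 10 shared no hydroxamic acid, so compound and batch cannot be told apart in these values. Without batch 4 the class passed the test at -0.29 (adjusted p = 0.0012), as did the Gcg changes under pyroxamide (-0.44, adjusted p = 0.0091) and ITF-2357 (-0.39, adjusted p = 0.026). The class effect did not pass the test of a line difference (-0.26 ± 0.12, adjusted p = 0.086, 35.8%), but did without replicate 1 (-0.32, adjusted p = 0.036).

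Of the cyclic tetrapeptides, apicidin changed Gcg in opposite directions in the 2 lines and HC-toxin did not pass the test in either. Apicidin arrays of αTC1 read 12.59, 12.81 and 12.79, and those of βTC3 9.42, 8.25 and 5.96 in batches 5, 6 and 4. Gcg rose under apicidin in αTC1 (0.41 ± 0.11, 1.33-fold, adjusted p = 0.0020, 37.7% of genes called) and fell in βTC3 (-0.71 ± 0.20, 1.63-fold, adjusted p = 0.0022, 36.1%). Without replicate 1 of every compound, which included the apicidin array with Ins2, Npy and Sst, the αTC1 change was 0.37 (adjusted p = 0.0314). Without batch 5 it was 0.34 (adjusted p = 0.055). In βTC3 the call was lost without replicate 2 (-0.48, adjusted p = 0.14) or batch 6 (-0.53, adjusted p = 0.079). HC-toxin stood at 0.26 ± 0.11 (adjusted p = 0.080, 21.9%) and 0.08 ± 0.19 (adjusted p = 0.95, 2.2%) in αTC1 and βTC3. Against DMSO of their own batch the βTC3 arrays of HC-toxin averaged -0.13, the opposite sign. In αTC1 the HC-toxin change of Gcg passed with the array plate as a random block (0.27, adjusted p = 0.045), after quantile normalization (0.35, adjusted p = 0.011) or without batch 10 (0.29, adjusted p = 0.039). The class rose in αTC1 (0.33 ± 0.084, adjusted p = 9.49e-04, 36%) and did not pass in βTC3 (-0.31 ± 0.15, adjusted p = 0.13, 25.5%), and the line difference of -0.65 ± 0.18 passed (adjusted p = 0.0028, 24%), though not without replicate 2 (-0.49, adjusted p = 0.089). With HC-toxin alone the αTC1 class call was lost (0.26, adjusted p = 0.080).

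Of the compounds known by code name, 5 raised Gcg in αTC1 at 24 h. Arrays of BRD-K22912318 read 12.71, 12.72 and 12.93 (0.47 ± 0.11, adjusted p = 5.62e-04, 23.5% of genes called). Arrays of BRD-K90919562 read 12.69, 12.75 and 12.81 (0.43 ± 0.11, adjusted p = 0.0033, 13.4%) and those of BRD-K17311666 12.93, 12.41 and 12.70 (0.36 ± 0.11, adjusted p = 0.0071, 29.4%). These 3 lowered Gcg in βTC3. Arrays there read 9.57, 9.30 and 5.91 in batches 9, 8 and 4 for BRD-K22912318 (-0.88 ± 0.20, 1.84-fold, adjusted p = 5.21e-04, 18%). In the same batches they read 10.05, 9.22 and 6.13 for BRD-K90919562 (-0.67 ± 0.20, adjusted p = 0.0162, 9.58%) and 9.86, 9.34 and 6.04 for BRD-K17311666 (-0.72 ± 0.20, adjusted p = 0.0031, 24.1%). Each of the 9 arrays lay below the DMSO arrays of its batch, which were single arrays in batches 8 and 9. Without replicate 2 the βTC3 changes of Gcg under BRD-K90919562 and BRD-K17311666 were -0.48 (adjusted p = 0.30) and -0.61 (adjusted p = 0.077), and without replicate 3 they were -0.68 (adjusted p = 0.13) and -0.72 (adjusted p = 0.068), none of which passed. Without batch 8 neither passed in βTC3 (-0.51, adjusted p = 0.24, and -0.64, adjusted p = 0.065) or in αTC1 (0.38, adjusted p = 0.061, and 0.30, adjusted p = 0.10). The αTC1 call was also lost without batch 4 for BRD-K90919562 (0.38, adjusted p = 0.075) and without batch 9 for BRD-K17311666 (0.33, adjusted p = 0.056), and the βTC3 call of the former without batch 9 (-0.79, adjusted p = 0.069). The calls for BRD-K22912318 were kept without any single replicate or batch in both lines. BRD9773 (12.85, 12.66 and 12.80 in αTC1) and BRD-A94377914 (12.41, 13.18 and 12.77) rose in αTC1 by 0.41 ± 0.11 (adjusted p = 0.0040, 19.5%) and 0.43 ± 0.11 (adjusted p = 0.0071, 7.95%). In βTC3 they stood at -0.07 ± 0.20 and -0.19 ± 0.20, short of the threshold. The call for BRD-A94377914 rested on batches 8 and 9, since the array of batch 7 equalled its DMSO mean, and was lost without replicate 2 (0.30, adjusted p = 0.46) or 3 (0.39, adjusted p = 0.22). That for BRD9773 was lost without replicate 1 (0.34, adjusted p = 0.064), batch 7 (0.36, adjusted p = 0.071) or batch 8 (0.39, adjusted p = 0.051). The other 5 compounds known by code name did not pass the test in either line. Leaving out batch 8 took the αTC1 count of compounds with a rise from 11 to 7.

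Inhibitors of other enzyme classes gave few calls. Chaetocin arrays of αTC1 read 11.71, 11.95, 11.97 and 12.26, each below DMSO of its batch, and Gcg fell (-0.40 ± 0.10, 1.32-fold, adjusted p = 7.35e-04, 47.9% of genes called). This fall came after 6 h, when the change was -0.03 ± 0.089, and the step from 6 to 24 h of -0.37 ± 0.13 passed the test (adjusted p = 0.0267, 29%), but not without replicate 1 (-0.31, adjusted p = 0.12) or 3 (-0.43, adjusted p = 0.055). In βTC3 chaetocin stood at -0.16 ± 0.20 (adjusted p = 0.60, 30.9%), and the line difference did not pass (0.23 ± 0.22, adjusted p = 0.46, 28.8%). BIX-01294 arrays of αTC1 read 11.90, 12.29 and 11.64, below DMSO of their batch (-0.38 ± 0.11, adjusted p = 0.0472, 1.6%), a call that 6 of 19 alternatives kept. In βTC3 BIX-01294 stood at -0.40 ± 0.19 (adjusted p = 0.43, 1.2%), nearly the same estimate with a wider error, and Gcg passed there without batch 4 (-0.52, adjusted p = 0.027). AMI-1 stood at 0.12 ± 0.11 and -0.08 ± 0.20. The inhibitors of DNA methylation did not pass the test in either line at 24 h. As a class they stood at 0.03 ± 0.078 in αTC1 (95% interval -0.13 to 0.18, 0.136% of genes called) and at 0.10 ± 0.14 in βTC3 (-0.19 to 0.38, 3.78%), and 5-azadeoxycytidine alone at 0.10 ± 0.11 and 0.28 ± 0.20. At 6 h in αTC1 5-azadeoxycytidine arrays read 13.01, 12.84 and 12.50, all above DMSO of their batch (0.27 ± 0.088, adjusted p = 0.20, 0.263% called). The change passed only when p was adjusted over all genes and comparisons together (0.0249).

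**Figure D4:**
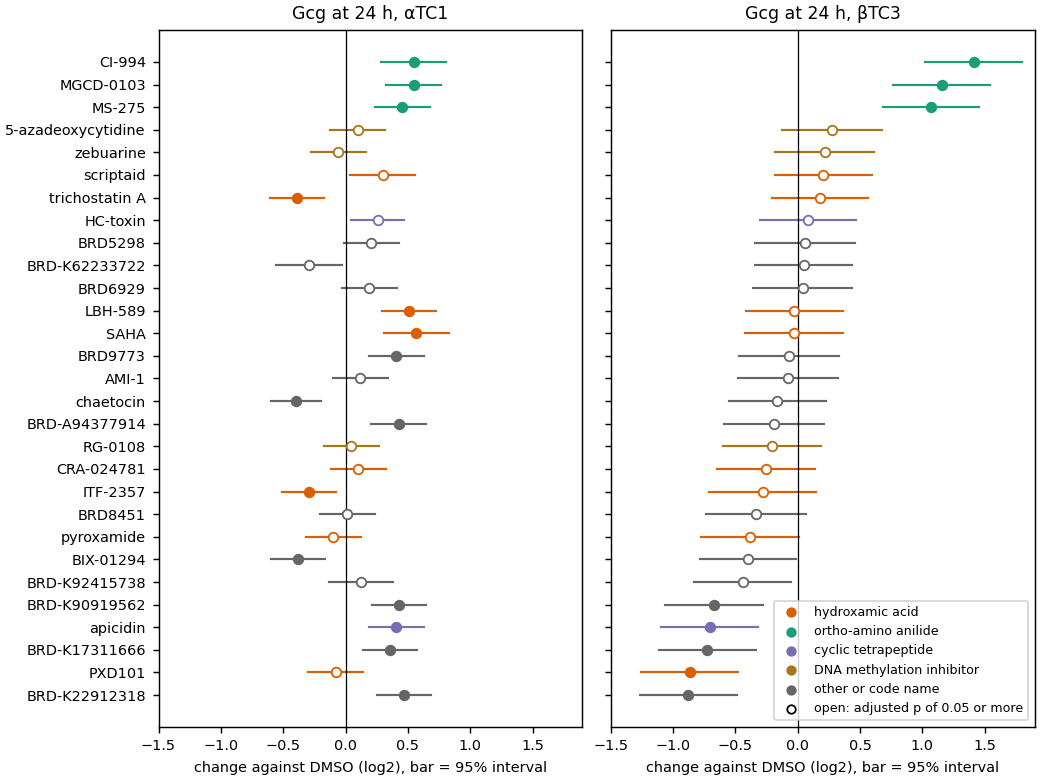
Change of Gcg against DMSO at 24 h (log2, points) with 95% intervals (bars) for 29 compounds in αTC1 (left) and βTC3 (right), ordered by the βTC3 value. Filled points have an adjusted p under 0.05: 15 in αTC1, between -0.40 and 0.57, and 8 in βTC3, between -0.88 and 1.41.

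The order of the compounds was mostly not resolved between neighbours. With the 29 compounds and DMSO ranked by batch-adjusted level at 24 h, 1 of 29 neighbouring gaps in αTC1 and 2 in βTC3 exceeded their SE. The widest was 0.79 ± 0.26 in βTC3, below the 3 anilides (limma unadjusted p = 0.0030, between neighbours picked by rank). It was the only gap over 2 SE. At 1 and 6 h 0 of 29 gaps exceeded their SE in either line. After treatment and batch were accounted for, the residual SD of Gcg at 24 h was 0.30 in βTC3 (median gene 0.17) and 0.16 in αTC1 (median gene 0.20). The smallest change that passed the test at 24 h in βTC3 was -0.67, against -0.30 in αTC1.

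Since lines answered differently, the difference of each compound's change between the lines at 24 h was tested, in 29 tests added after values were seen. BRD-K22912318 (-1.35 ± 0.23, adjusted p = 3.79e-06, 10.8% of genes called), apicidin (-1.11 ± 0.23, 25%), BRD-K90919562 (-1.10 ± 0.23, 4.76%) and BRD-K17311666 (-1.08 ± 0.23, 14.4%) were lower in βTC3. So was PXD101 (-0.79 ± 0.23, adjusted p = 0.0048, 25.6%). CI-994 (0.87 ± 0.25, adjusted p = 0.0070, 17%), MS-275 (0.61 ± 0.23, adjusted p = 0.044, 18%) and trichostatin A (0.57 ± 0.22, adjusted p = 0.042, 30.5%) were higher in βTC3, and MGCD-0103 lay just outside the threshold (0.61 ± 0.23, adjusted p = 0.055, 14.7%). For Gcg the MS-275 call was lost after quantile normalization (0.56, adjusted p = 0.070), and MGCD-0103 passed with arrays centred on their medians (0.62, adjusted p = 0.049). The other 20 did not pass this test.

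Compounds at a matched dose of 10 µM were compared in 4 pairs per line and time, 24 tests in all, with p adjusted over genes unless said otherwise. At 24 h Gcg stood higher under the anilide CI-994 than under the hydroxamic acid ITF-2357, by 0.84 ± 0.16 in αTC1 (adjusted p = 3.90e-05, 21.4% of genes called) and 1.69 ± 0.28 in βTC3 (adjusted p = 1.62e-06, 20.8%). It also stood higher under CI-994 than under the hydroxamic acid pyroxamide, by 0.64 ± 0.16 in αTC1 (adjusted p = 0.0028, 15.2%) and 1.79 ± 0.26 in βTC3 (adjusted p = 3.66e-07, 12.8%). The αTC1 call was lost without replicate 2 (0.59, adjusted p = 0.16). In βTC3 all ITF-2357 arrays came from batch 10, which held 0 CI-994 arrays, so that pair rests on the batch term. The 2 hydroxamic acids did not differ beyond their error (ITF-2357 minus pyroxamide -0.20, 95% interval -0.48 to 0.08, in αTC1, and 0.10, -0.41 to 0.61, in βTC3). The nucleosides 5-azadeoxycytidine and zebuarine differed by 0.16 (-0.11 to 0.42) and 0.06 (-0.42 to 0.54) at 24 h, short of the threshold. At 6 h in αTC1 5-azadeoxycytidine stood above zebuarine by 0.38 ± 0.11 and at 1 h in βTC3 by 0.47 ± 0.16. These passed when p was adjusted over the 24 pair tests (0.0041 and 0.016) but not over genes (0.13 and 0.18). The calls of the other pairs were the same under both adjustments. At 6 h CI-994 stood above ITF-2357 (0.42 ± 0.12, adjusted p = 0.0041, 30.1%) and pyroxamide (0.34 ± 0.12, adjusted p = 0.021, 30.2%) in αTC1. Both calls were lost without replicate 1 (0.19, adjusted p = 0.34, and 0.19, adjusted p = 0.30), and the latter also without replicate 3 (0.35, adjusted p = 0.13). At 1 h 0 of the 4 pairs passed in either line with p adjusted over genes.

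The other genes of the pathway were read under the hydroxamic acids and the anilides at 24 h, from lists of known regulators, processing enzymes and hormones. In αTC1 26.1% of all genes rose and 24.3% fell under the hydroxamic acids, and 21.2% and 22.5% under the anilides. In βTC3 the shares were 22.5% and 20.7%, and 22% and 21.7%. The median over all genes was within 0.02 of 0 in each of these comparisons, and the call shares are the background for the counts that follow.

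Activators of Gcg did not move together. Of 13 measured, 3 rose and 4 fell under the hydroxamic acids in αTC1 and 3 and 2 under the anilides. In βTC3 1 rose and 4 fell, and 3 and 3. Pax6, a homeodomain activator of Gcg, fell under both classes, in βTC3 by 1.21 ± 0.072 and 1.19 ± 0.093 and in αTC1 by 0.50 ± 0.075 and 0.41 ± 0.11. Isl1 fell in the same 4 comparisons (-0.51 ± 0.069 and -0.39 ± 0.096 in αTC1, -0.26 ± 0.049 and -0.18 ± 0.063 in βTC3). Foxa2 fell under the hydroxamic acids (-0.43 ± 0.097 and -0.37 ± 0.068) and under the anilides in βTC3 (-0.27 ± 0.088, adjusted p = 0.0092), while in αTC1 the anilide value was -0.23 ± 0.13 (adjusted p = 0.18). Foxa1, a related factor, rose in βTC3 under the anilides (1.13 ± 0.12) and the hydroxamic acids (0.45 ± 0.091). Neurod1 rose in αTC1 (0.43 ± 0.10 and 0.59 ± 0.14), and the Wnt effector Ctnnb1 rose under the anilides in both lines (0.64 ± 0.065 and 0.31 ± 0.058).

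The list of β cell programme genes also held the repressor Hes1. In βTC3 4 of its 5 measured members fell under each class, and 1, Hes1, rose. Under the anilides Nkx2-2 (-1.69 ± 0.13), Pax4 (-0.97 ± 0.15), Nkx6-1 (-0.82 ± 0.095) and Pdx1 (-0.67 ± 0.092) fell and Hes1 rose (0.69 ± 0.077). Under the hydroxamic acids, where Gcg did not pass the test, the same 4 genes fell (Nkx2-2 -1.75 ± 0.10, Pax4 -1.09 ± 0.12, Nkx6-1 -0.89 ± 0.073 and Pdx1 -1.06 ± 0.071), and Hes1 rose by 0.25 ± 0.059. The medians of the list were -0.82 and -1.06. In αTC1 Nkx2-2 fell under both (-1.93 ± 0.16 and -1.35 ± 0.12), Hes1 rose under the anilides (0.73 ± 0.10) and fell under the hydroxamic acids (-0.45 ± 0.075), and Pdx1 stood at -0.13 ± 0.15 and -0.27 ± 0.11.

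Many genes for processing prohormones and filling granules rose in αTC1, under the anilides, where Gcg rose, and under the hydroxamic acids, where Gcg did not pass the test. Under the anilides 8 of 9 rose and 0 fell (median 0.60), led by the granin genes Scg3 (1.11 ± 0.083) and Chgb (0.98 ± 0.088), Pcsk1n (0.63 ± 0.10) and Scg2 (0.62 ± 0.085). Under the hydroxamic acids 6 rose and 0 fell (median 0.38). In βTC3 7 rose and 0 fell under the anilides (median 0.25), with Pcsk1n at 0.46 ± 0.079, Scg5 at 0.36 ± 0.092 and Chga at 0.33 ± 0.047. There 0 rose and 4 fell under the hydroxamic acids (median -0.08), led by Pcsk1 (-0.60 ± 0.096), which under the anilides stood at 0.14 ± 0.12 (adjusted p = 0.40). Pcsk1 in αTC1 was near the floor and stood at -0.01 under each class.

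Other peptide hormones were mixed. In βTC3 Ins2 stood at 0.08 ± 0.043 under the anilides (adjusted p = 0.13) and at -0.01 ± 0.033 under the hydroxamic acids, with levels near the top of the range. Sst rose in βTC3 (0.22 ± 0.041 and 0.13 ± 0.031), and Gast fell under the hydroxamic acids (-0.71 ± 0.077) and rose by 0.25 ± 0.10 under the anilides (adjusted p = 0.034). In αTC1 Cck (cholecystokinin) rose under both classes (1.84 ± 0.12 and 0.82 ± 0.088), while Ins2 (-0.22 ± 0.45 and 0.11 ± 0.32) did not pass the test. Sst in αTC1 rose under the hydroxamic acids (0.75 ± 0.19) and stood at -0.08 ± 0.26 under the anilides. The hydroxamic acid arrays included those of ITF-2357, where Sst read 6.90, 6.54 and 4.89 and Ins2 7.85, 5.15 and 4.13 in replicates 1, 2 and 3. The αTC1 medians were 3.96 and 4.12. Ppy and Pyy stayed near the floor in both lines, with changes between -0.24 and 0.29. Of 5 measured members of the glucagon family and its receptors, 0 rose or fell in αTC1 under either class. In βTC3 the receptor gene Glp1r fell under both (-1.14 ± 0.18 under the anilides, -0.86 ± 0.14 under the hydroxamic acids), and Sct fell under the hydroxamic acids (-0.44 ± 0.082).

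Markers of other cell types were also read. Of the 6 α cell markers besides Gcg, the anilides raised 1 and lowered 2 in αTC1, and raised 1 and lowered 1 in βTC3. Under the hydroxamic acids 0 rose and 4 fell in each line. Under the anilides in αTC1 Irx1 (-1.10 ± 0.12) and Irx2 (-0.80 ± 0.094) fell and Ttr rose (0.42 ± 0.089), and in βTC3 Tm4sf4 fell (-1.90 ± 0.21). The exocrine list had 1 rise among its 12 values, and Col1a1, a fibroblast gene, rose under both classes in both lines (0.24 ± 0.062 to 0.58 ± 0.089) from a mean near 3.1. What part, if any, such cells have in the Gcg values was not tested.

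The genes beside Gcg on the chromosome were read in the same comparisons. With the genes in the order Slc4a10, Dpp4, Gcg, Fap, Ifih1, Gca, and Kcnh7 listed with them, 2 of the 6 genes measured beside Gcg rose and 0 fell under each class in αTC1, where 21.2% and 26.1% of all genes rose under the anilides and the hydroxamic acids. Gca, a calcium-binding protein gene, rose by 2.54 ± 0.21 under the anilides and 2.17 ± 0.15 under the hydroxamic acids in αTC1, and by 0.56 ± 0.093 and 0.64 ± 0.072 in βTC3. Ifih1, an RNA sensor, rose by 0.47 ± 0.12 and 0.24 ± 0.086 in αTC1 and by 0.38 ± 0.065 and 0.13 ± 0.050 in βTC3. Dpp4 rose under the anilides (0.71 ± 0.12) and fell under the hydroxamic acids (-0.63 ± 0.091) in βTC3, and stood at -0.12 ± 0.084 and 0.07 ± 0.061 in αTC1. Slc4a10 fell in βTC3 (-0.61 ± 0.12 and -0.36 ± 0.093). Fap, the nearest gene on the other side, did not pass the test in any of these comparisons, with values between -0.13 and 0.06.

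Over the batch-adjusted means of 30 treatments at 3 times, 90 points per line that share batches and DMSO arrays, the genes most and least like Gcg were taken from the same number of genes, 5903, as a description. In βTC3 the highest r belonged to Rbp4 (a retinol carrier, 0.83), Rpl22l1 (0.79), Gng12 (0.79), Crybb3 (0.78) and Gpx1 (0.77), and the lowest to Bloc1s6 (-0.76), 1810044D09Rik (-0.73), Sumf1 (-0.73), Mto1 (-0.73) and Aldh1l1 (-0.72). In αTC1 they were Bace2 (a protease of β and α cells, 0.76), Gria2 (0.69), Fxyd6 (0.68), Mybl2 (0.67) and Ttr (0.67), and Dnajc13 (-0.64), Rfng (-0.60), Ccng1 (-0.58), Cpsf1 (-0.58) and Slc19a2 (-0.57). Of these lists Ttr was also an α cell marker fixed for this work.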

How the data were processed

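RNA was measured on 594 Affymetrix arrays. The authors deposited 1 table of linear intensities, which the submitters' processing notes credit to RMA. Its version and settings are not given in the sources used here, and the depth of an array is not defined. The intensities ran from 3.962 to 13635 and array medians from 4.363 to 4.729 on the log2 scale. A log scale had been allowed for in the plan. As the deposited values were linear, log2 was taken here. Of 22716 probe sets, 18003 had 1 gene symbol, 287 several and 4426 none, which left 11807 genes.

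Each line and time was fitted alone in limma 3.58.1 (R 4.3.3) with batch as a term, with Benjamini-Hochberg adjustment across the genes. Replicate numbers came from the sample titles and share no stated source between groups. A fit without a replicate left out the arrays of that number for all compounds at once. The fit was tested on simulated data. Named genes were Gcg, up to 4 called members per list and direction, a set of islet genes named throughout, and the 5 genes most and least like Gcg. Some of these are left out for length, a choice made after values were seen. The gene, the lists and the tests were chosen with earlier results of these data known.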

Additional observations from a re-analysis of the deposited data

Results flagged for a closer look

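For Gcg 14 differences between groups passed a test of the difference itself. Between the lines at 24 h (βTC3 minus αTC1) these were the anilides (0.70), the cyclic tetrapeptides (-0.65) and 8 single compounds: BRD-K22912318 (-1.35), apicidin (-1.11), BRD-K90919562 (-1.10), BRD-K17311666 (-1.08), PXD101 (-0.79), CI-994 (0.87), MS-275 (0.61) and trichostatin A (0.57). Between 24 and 6 h they were the anilides in αTC1 (0.35) and βTC3 (0.96) and chaetocin in αTC1 (-0.37). Between batches it was the anilide change in βTC3, larger by 1.73 in batch 4 than in batches 5 and 6. The MS-275 difference did not pass after quantile normalization. The line differences of the anilide class, CI-994 and MS-275 were not tested without batch 4. The tests of single compounds and of batch 4 were added after values were seen. Of the groups of arrays, 2 had a size at which a single outlying array could be tested, and 0 held one.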

How the results depend on the processing

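Values of classes, pairs and counts that changed their side of the threshold follow, with the cause not tested. Among single compounds and named genes, 7276 values kept their side, 265 no longer passed and 17 newly passed, many of them given beside their results. With only the arrays compared, the Gcg calls for BRD-A94377914 in αTC1 (0.45) and BRD-K90919562 in βTC3 (-0.51) were lost. Without a batch term the anilide change in βTC3 at 24 h was 0.77, its step from 6 h 0.40 and its difference from αTC1 0.37. The tetrapeptide line difference was then -0.68, CI-994 minus ITF-2357 in βTC3 2.67, CI-994 minus pyroxamide 1.43 in βTC3 and 0.45 in αTC1, and the fall of DMSO in βTC3 -0.83. The compounds called then numbered 0 with a rise and 0 with a fall in βTC3, and 2 with a fall in αTC1. The 6 h anilide change of αTC1 was 0.092 without a batch term, 0.17 after quantile normalization, 0.16 with arrays centred, 0.12 with only the arrays compared, 0.18 without MS-275 and 0.12 without CI-994. Without batch 4, 6, 7, 8 or 10 it was 0.13, 0.12, 0.15, 0.16 or 0.16, and within batches 4, 5 and 6 it was 0.15, -0.023 and 0.24. In βTC3 it was 0.37 without a batch term, 0.29 with only the arrays compared and 0.18 without CI-994. Without batch 4, 6, 9 or 10 it was 0.15, 0.24, 0.25 or 0.25, and within batches 4, 5 and 6 it was 0.48, 0.097 and 0.30. Within batch 5 the 24 h anilide change was 0.40 in αTC1 and 0.52 in βTC3, and the tetrapeptide change of αTC1 was 0.34 within batch 5 and 0.52 within batch 6. That change was 0.26 without apicidin. The hydroxamic acids passed in αTC1 without trichostatin A (0.14), and in βTC3 without batch 4 (-0.29) or with only the arrays compared (-0.20). The tetrapeptides passed in βTC3 without batch 4 (-0.44), without HC-toxin (-0.71) or with only the arrays compared (-0.38). Their step from 6 to 24 h in αTC1 passed after quantile normalization (0.32) or centring (0.29). The fall of DMSO in αTC1 passed after quantile normalization (-0.21), centring (-0.21), leaving out low genes (-0.19) or leaving out batch 10 (-0.28). Without batch 8 Gcg rose under 7 compounds in αTC1 and fell under 3 in βTC3, without batch 10 it fell under 2 in αTC1, and without batch 4 it fell under 8 in βTC3.

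Leaving out each replicate in turn gave 6 to 10 rises and 2 to 3 falls in αTC1 and 2 to 5 falls in βTC3. The 6 h anilide change then ran from 0.13 to 0.16 (αTC1) and from 0.17 to 0.35 (βTC3), and its step to 24 h in αTC1 from 0.33 to 0.44. CI-994 minus pyroxamide in αTC1 ran from 0.57 to 0.71, and the line difference from -0.82 to -0.49 for tetrapeptides and from -0.32 to -0.22 for hydroxamic acids, which passed without replicate 1. The 6 h anilide call was lost without any 1 replicate in αTC1 and without replicate 3 in βTC3. With the replicate number as a block, 0 of 24 pair calls changed, and CI-994 minus ITF-2357 at 24 h was 0.79 in αTC1 and 1.65 in βTC3. Values within batches, of batch 4 and of single compounds between lines were alternatives chosen after seeing the data. The number of arrays limits precision, and in αTC1 the signal lay near the top of the range.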
